A study of Bos taurus with 106 samples.

Results

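The genes described here encode factors that start and extend protein synthesis and the enzymes that charge tRNA with amino acids, measured in bovine liver through the dry period and into lactation. They were taken by symbol from the probe gene table of the array: symbols that begin with EIF or EEF and a digit, ETF1, PABPC1, and aminoacyl-tRNA synthetases named by a single letter before ARS, ARS1 or ARS2. The rule found 66 of the 8208 spotted elements (cDNA probes, each printed in duplicate), and these represent 50 genes. A total of 65 elements from 49 genes could be tested. The element for EIF1AX, which helps the small ribosomal subunit find the start codon, had values in 39 of 53 samples and was left out of the tests. Where a gene has several elements they are numbered, and 15 genes have 2 or more.

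Liver was sampled from 8 Holstein cows on days -65, -30, -14, 1, 14, 28 and 49 relative to calving. All cows received a diet of moderate energy density (1.60 Mcal/kg) during a dry period of 65 days. In 4 cows intake was restricted to about 80% of the NRC requirement, and 4 cows ate ad libitum and consumed about 120%. The labels describe feeding in the dry period only. All 8 cows were sampled on each day except day -65 (7 cows, with 3 ad libitum) and day 49 (6 cows, with 2 ad libitum). Each liver RNA was hybridised on 2-colour arrays, in both dye orientations, against a reference RNA mixed from tissues other than liver. A level below is the log2 ratio of liver over this reference after each array was centred on its median, and a difference is a difference between such levels. The array has no probes of equal length or brightness, so levels are compared within an element and not between elements.

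Initiation begins when eIF2 carries the initiator tRNA to the small ribosomal subunit, with eIF3 as a scaffold and eIF1 proteins guarding the choice of start codon. The eIF4 factors bind the cap and unwind the message, eIF5 releases eIF2, eIF2B recharges it with GTP, and eIF2 kinases block that recharging under stress. Elongation needs eEF1, which delivers charged tRNA, and eEF2, which moves the ribosome along the message and is switched off by its kinase EEF2K. The synthetases attach each amino acid to its tRNA, with separate enzymes for cytosol and mitochondria. Liver makes most plasma proteins, and its protein synthesis responds to amino acid and energy supply.

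A level of 0 is the median of an array and not equality with the reference. Averaged over days, 15 members lay above that median and 51 below it. FARS2, the mitochondrial phenylalanyl-tRNA synthetase, ranged from 1.09 on day 49 to 1.84 on day 14. WARS1, the tryptophanyl-tRNA synthetase of the cytosol, ranged from -2.43 on day 49 to -1.20 on day -14. The transferrin element, a hepatocyte product, averaged between 3.98 and 5.57 over the days.

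The reliability of single members differed. Across cow-days, levels from the 2 dye orientations correlated over 0.5 in 35 of 66 members (beside 41.9% of all tested elements) and under 0.2 in 15. EIF3A had the highest correlation, at 0.873, and ETF1 the lowest, at -0.13. EIF3B, EIF1AX and EIF5 element 1 had dye effects of -3.20, -2.96 and -3.24 on the log2 scale, larger than any change over days among the members. Averaged over all elements of a cow-day, the correlation between orientations (after removal of each element's own dye effect) was 0.865 on day -30 and 0.870 on day 28, and 0.779, 0.745 and 0.774 on days -14, 1 and 14. On day 1 it averaged 0.816 in restricted cows and 0.674 in ad libitum cows. Counts with agreement as a covariate, and without the 5 cow-days under 0.7, are given below beside the diet results for days -14, 1 and 14.

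Elements of the same gene give another check. The 17 pairs correlated over cow-days with a median r of 0.57, from -0.31 for EIF5 to 0.94 for EEF2 elements 2 and 3. The pairs for EEF2, EEF2K and PABPC1 all had r of 0.87 or higher. The pairs for EIF3I, EIF4G3, EIF5, MARS1 and EIF2AK4 had r under 0.2, so the elements of these genes cannot stand for each other.

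Over the 7 days, 25 of 65 members passed the test of any difference between days (limma F test, adjusted p under 0.05 over all elements), or 20 of 49 genes. This is 38.5% of the members, where 43.4% of all 8061 tested elements passed. By role, 8 of 11 elements of cytosolic synthetases (6 of 7 genes), 2 of 3 of eIF2B and 5 of 8 of elongation factors passed. The number was 1 of 3 for eIF1, 1 of 3 for the eIF2 kinases, 3 of 11 for eIF3, 3 of 9 for eIF4, 1 of 4 for eIF5, eIF5A and eIF6, and 1 of 6 for mitochondrial synthetases. None of the 4 elements for eIF2 and eIF2D or of the 3 for ETF1 and PABPC1 passed. In the same test 47 of 57 cytosolic ribosomal protein elements passed.

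**Figure D1:**
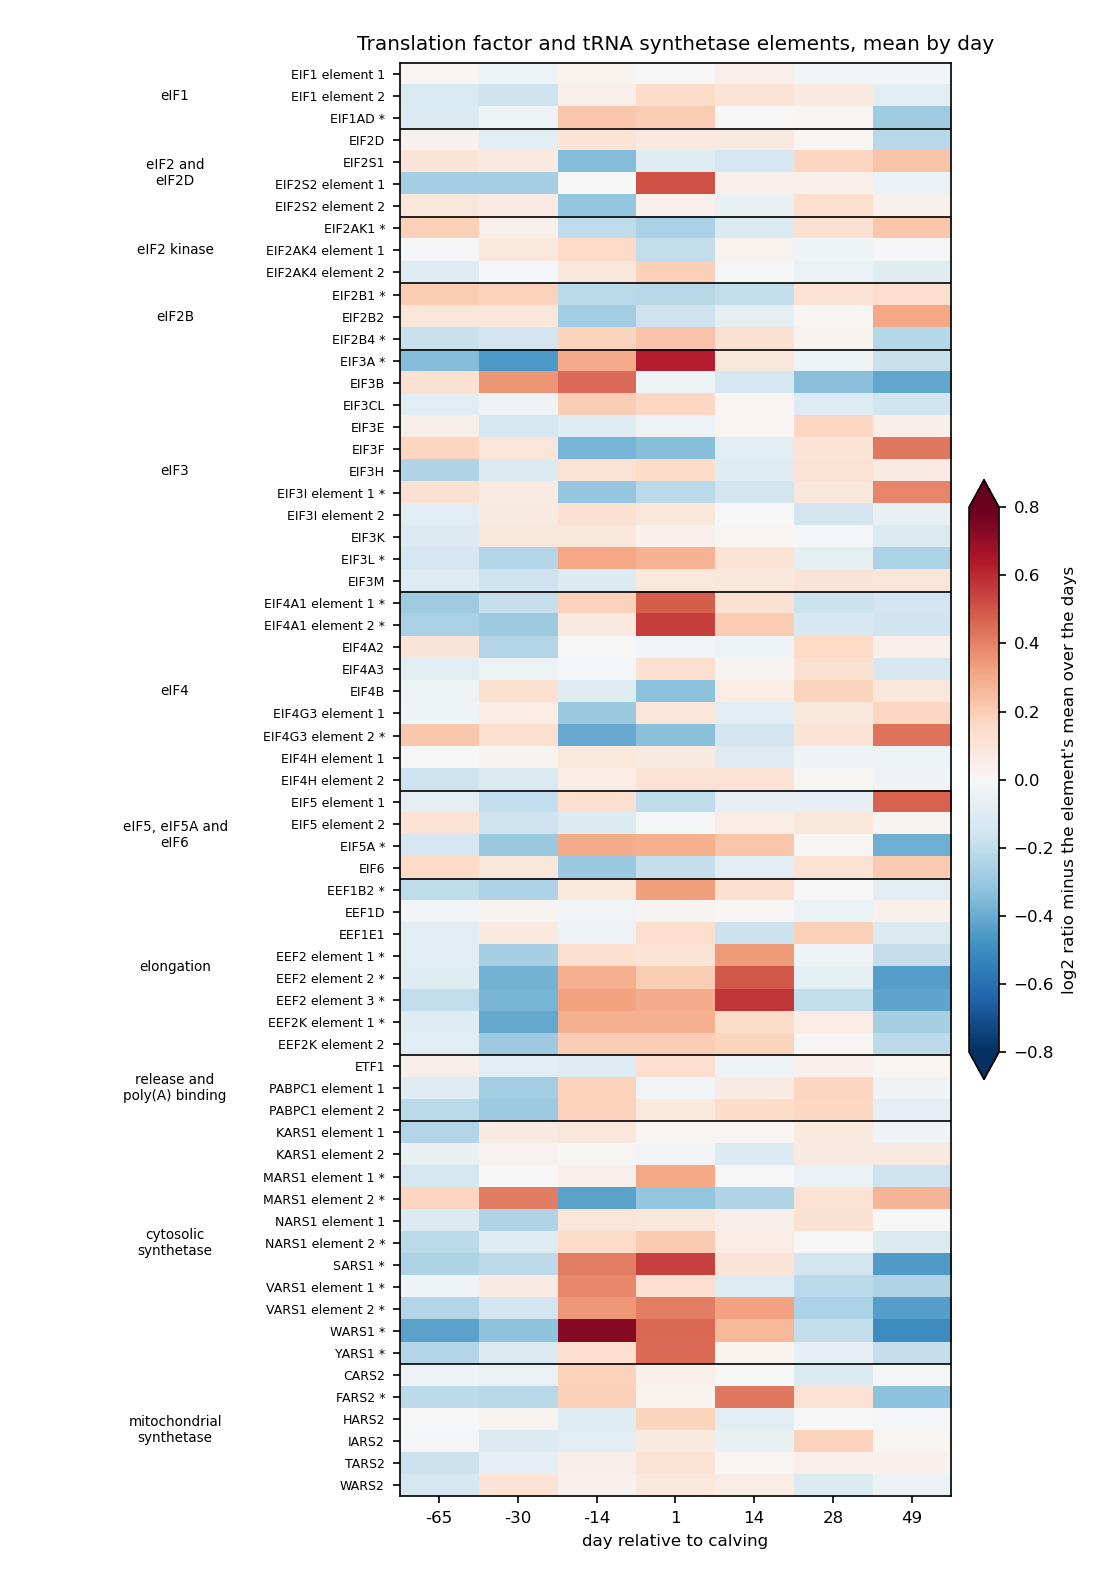
Heat map of the 65 tested elements (rows, grouped by role) against day relative to calving (columns); colour is the mean log2 ratio over the cows of a day minus the element's mean over days, and an asterisk marks adjusted p under 0.05 in the F test over days. WARS1, SARS1, VARS1 element 2 and the EEF2 elements are warm on days -14, 1 and 14, and MARS1 element 2, EIF3F and EIF4G3 element 2 are cool on the same days.

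Of the steps between neighbouring days, the one from day -30 to day -14, in the dry period, had the most calls. Of 65 members 17 passed, 14 higher and 3 lower on day -14. The background was 33.5% of all elements (19.5% higher and 14.0% lower), and the members' share was 26.2%. The median difference was 0.13 over the members and 0.06 over all elements. In the same step 40 of 57 ribosomal protein elements passed, all higher, with a median difference of 0.52. Markers of cell types moved too: 6 of 10 stellate cell and fibroblast elements rose, 3 of 7 endothelial elements fell and 1 rose, 2 of 9 macrophage elements rose and 2 fell, and 1 of 3 lymphocyte and leukocyte elements rose. Of the 2 hepatocyte elements, TF fell from a mean of 4.88 to 4.12, and the mean of APOA1 went from 1.12 to 0.66. Their part in the members' changes was not tested, and in whole liver fewer cells of a type and less RNA per cell cannot be told apart. Without centring the arrays, 32 members were higher and 0 lower, with the median of all elements at 0.48. Leaving out cow 6886 or cow 7161 gave 11 calls, and leaving out cow 7187 gave 10. For counts under such alternatives, here and below, the share of all elements called is not given.

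The largest increase was that of WARS1. On day -30 the 8 cows lay between -2.49 and -1.97, with a median of -2.28, and on day -14 between -1.69 and -0.64, with a median of -1.19. The ranges of the days did not overlap, and every cow rose. The difference was 1.05 ± 0.18 (SE, n = 8), or 2.07-fold, with adjusted p = 2.93e-05. It was 1.42 in arrays with liver in Cy3 and 0.68 with liver in Cy5. By day 28 the cows were back between -2.62 and -1.47.

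SARS1, the cytosolic seryl-tRNA synthetase, moved with it. The 8 cows lay between -0.88 and -0.39 (median -0.64) on day -30 and between -0.69 and 0.55 (median 0.07) on day -14. The ranges overlapped, but all 8 cows rose. The difference was 0.61 ± 0.14 (SE, n = 8), with adjusted p = 0.00062. YARS1, which charges tyrosine, rose by 0.25 ± 0.10 (SE, n = 8; adjusted p = 0.043) in 7 of 8 cows, and VARS1 element 2, for valine, by 0.50 ± 0.14 (SE, n = 8; adjusted p = 0.0050) in 8 of 8. The 2 orientations disagreed for VARS1 element 2, with 1.07 for liver in Cy3 and -0.06 in Cy5. VARS1 element 1 rose by 0.32 and did not pass (adjusted p = 0.064). CARS2, the mitochondrial cysteinyl enzyme, rose by 0.24 ± 0.09 (SE, n = 8; adjusted p = 0.044), though its dye orientations correlated at only 0.03 across cow-days. The elements of KARS1 and NARS1, for lysine and asparagine, did not pass.

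The elements of MARS1, the methionyl-tRNA synthetase, gave different readings. MARS1 element 2 fell in all 8 cows, from between -0.88 and -0.30 on day -30 to between -1.56 and -1.17 on day -14, with no overlap. The difference was -0.84 ± 0.13 (SE, n = 8), with adjusted p = 5.94e-06. MARS1 element 1 differed by 0.04 (adjusted p = 0.83). The elements had r = -0.02 over cow-days, and which of them reports the gene was not tested. Without centring, the difference of MARS1 element 2 was -0.42 and did not pass (adjusted p = 0.063).

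Among elongation factors the 3 elements of EEF2, the translocation factor, rose together. EEF2 element 3 lay between -0.71 and -0.25 (median -0.45) on day -30 and between -0.45 and 0.92 (median 0.20) on day -14, and 8 of 8 cows rose. Its difference was 0.69 ± 0.15 (SE, n = 8; adjusted p = 0.00059). EEF2 elements 2 and 1 rose by 0.66 and 0.40. Both elements of EEF2K, the kinase that inhibits eEF2, rose as well, by 0.69 ± 0.21 (SE, n = 8; adjusted p = 0.0098) and 0.49 ± 0.19 (SE, n = 8; adjusted p = 0.040). EEF1B2 and EEF1D, exchange factors for eEF1, and EEF1E1, a partner of the synthetase complex, did not pass in this step.

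Initiation factors went both ways. EIF5A, which keeps ribosomes moving through difficult stretches, rose by 0.59 ± 0.14 (SE, n = 8; adjusted p = 0.0010) in 8 of 8 cows. EIF3L, a subunit of eIF3, rose by 0.55 ± 0.12 (SE, n = 8; adjusted p = 0.00076), and the other elements of eIF3 did not pass. EIF4A1 element 2, for the helicase of the cap complex, rose by 0.37 ± 0.13 (SE, n = 8; adjusted p = 0.023), and EIF2B4, the delta subunit of the exchange factor, rose by 0.33 ± 0.11 (SE, n = 8; adjusted p = 0.023). EIF2B4 did so in arrays with liver in Cy3 (0.64) far more than in Cy5 (0.01). EIF4A1 element 1 rose by 0.37 and did not pass (adjusted p = 0.065).

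EIF2S1, the subunit of eIF2 that the stress kinases phosphorylate, and EIF2B1, the alpha subunit of eIF2B, were lower on day -14. The differences were -0.43 ± 0.17 (SE, n = 8; adjusted p = 0.049) and -0.40 ± 0.15 (SE, n = 8; adjusted p = 0.038), each with 6 of 8 cows lower. The mean of EIF2S1 went from -0.42 to -0.56 in ad libitum and from -0.43 to -1.15 in restricted cows. That of EIF2B1 went from 0.04 to -0.26 in ad libitum and from 0.10 to -0.40 in restricted cows. Neither passed between diets on day -14. EIF2S1 differed by -0.99 with liver in Cy3 and by 0.13 in Cy5. Without centring, EIF2B1 differed by 0.02 and EIF2S1 by -0.01. Of the cows left out in turn, cow 6952 reduced both differences most, to -0.22 for EIF2S1 and -0.24 for EIF2B1. With a cow left out, EIF2S1 passed only when that cow was 6877, and EIF2B1 only when it was 6877 or 7050. With cow as a fixed block the adjusted p of EIF2S1 was 0.051, so both falls lie at the edge of the test.

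The later steps showed fewer calls. From day -14 to day 1 no member passed (0.397% of all elements did, and 7 members had an unadjusted p under 0.05), the nearest being EIF4A1 element 2 at 0.48 (adjusted p = 0.086), YARS1 at 0.32 (adjusted p = 0.17) and HARS2 at 0.27 (adjusted p = 0.23). For counts of members at an unadjusted p, here and below, the share of all elements at that threshold is not given. EIF4A1 element 2 was highest on day 1, when the 8 cows lay between -1.59 and -0.81. From day 1 to day 14 only YARS1 passed (0.707% of all elements passed, 0.608% lower), falling by 0.42 ± 0.10 (SE, n = 8; adjusted p = 0.024) in 6 of 8 cows. That call was lost without any of the cows 6886, 6952, 7045, 7105, 7161 and 7187, the adjusted p then lying between 0.089 and 0.14.

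From day 14 to day 28, 4 elements passed, all lower (8.62% of all elements, 4.91% lower). EEF2 element 3 fell from between -0.02 and 1.05 (median 0.35) to between -0.61 and 0.09 (median -0.30), in 8 of 8 cows. Its difference was -0.77 ± 0.15 (SE, n = 8; adjusted p = 0.00061). EEF2 elements 2 and 1 fell by 0.57 and 0.38, and VARS1 element 2 by 0.58. The VARS1 value rested on arrays with liver in Cy3, at -1.05, while Cy5 gave -0.10. VARS1 element 1 differed by -0.11 and did not pass (adjusted p = 0.67). The count was 2 without each of the cows 6877, 7105, 7161 and 7187, when EEF2 elements 1 and 2 no longer passed, and 6 without cow 6952. Markers moved in this step too: 5 of 7 endothelial elements rose, 4 of 10 stellate cell and fibroblast elements fell, and 1 of 9 macrophage elements rose and 1 fell. The hepatocyte marker TF rose from a mean of 4.10 to 5.13, and the mean of APOA1 went from 1.01 to 1.21. Their part was not tested.

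No member passed between days -65 and -30 (0.112% of all elements did), between days 28 and 49 (0.0124%), or between days -30 and 28 (0.347%). At an unadjusted p under 0.05 the numbers of members were 1, 5 and 10. From day -65 to day -30 the smallest p-values were those of WARS2 (0.26), KARS1 element 1 (0.29) and MARS1 element 2 (0.25). From day 28 to day 49 they were those of EIF4A3 (-0.24), EIF5A (-0.40) and EIF1AD (-0.32), and without centring the signs of these turned. Day 28 against day -30 gave -0.22 for WARS2, 0.45 for PABPC1 element 1 and 0.36 for NARS1 element 1, with adjusted p between 0.23 and 0.24.

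**Figure D2:**
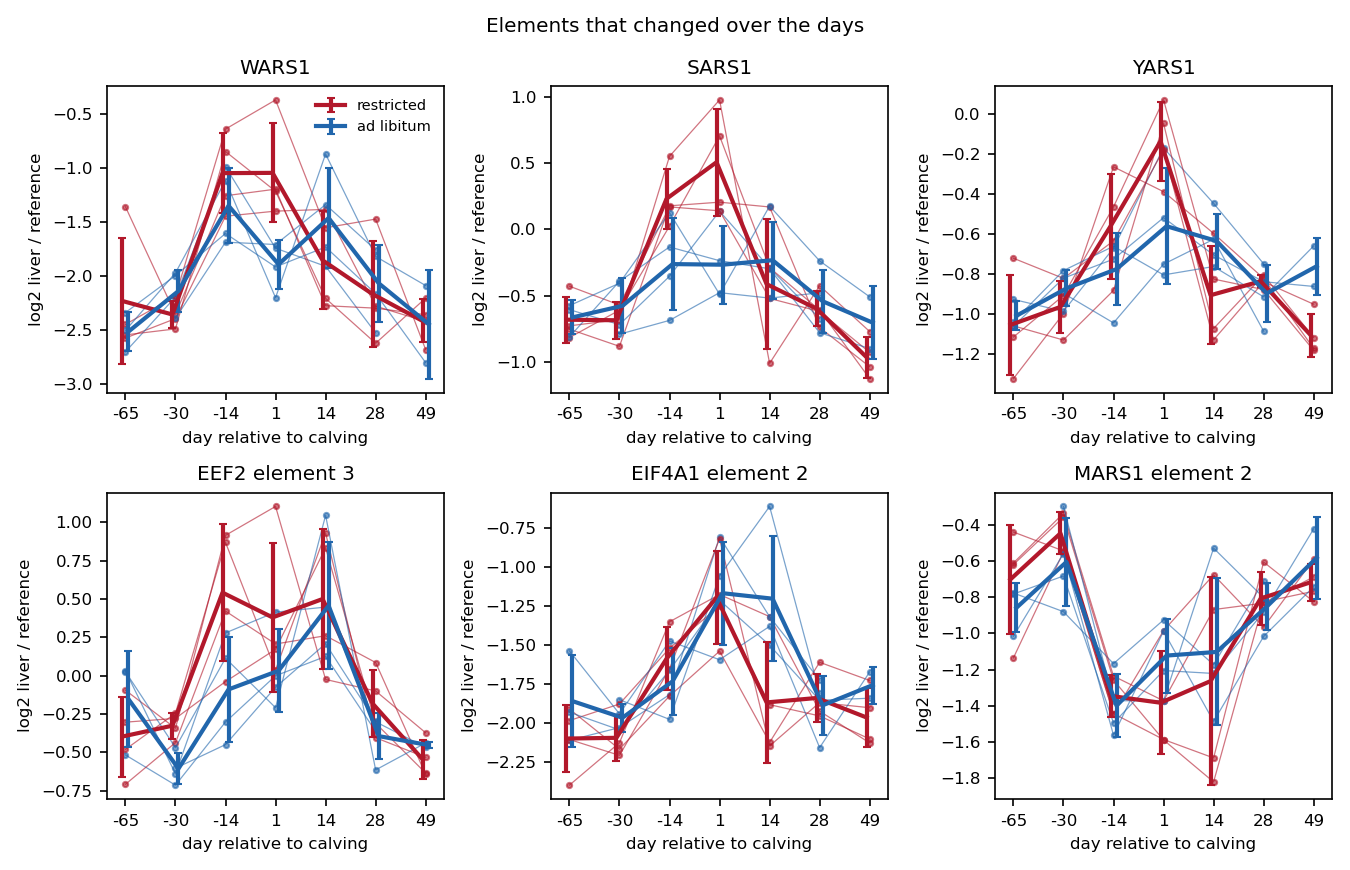
Log2 ratio of liver over reference (vertical axis) by day relative to calving for 6 elements; thin lines are cows and thick lines are diet means with SD, restricted in red and ad libitum in blue. WARS1, SARS1, YARS1, EEF2 element 3 and EIF4A1 element 2 stand highest between days -14 and 14, and MARS1 element 2 falls in every cow between days -30 and -14.

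The comparison of diets asks whether intake in the dry period altered these genes. On day -30 no member differed (0% of all elements, and 0 members at an unadjusted p under 0.05). EIF3K, a small eIF3 subunit, EEF1D and EIF2AK4 element 1, a kinase that senses uncharged tRNA, had the smallest p-values, at -0.34, -0.25 and -0.29 (ad libitum minus restricted, here and below).

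On day -14, 7 of 65 members passed, or 10.8% beside 6.08% of all elements. EIF3E, a core eIF3 subunit, was higher in ad libitum cows (0.943% of all elements were), with -0.57, -0.15, -0.15 and 0.23 in ad libitum and -1.75, -1.51, -0.59 and -0.39 in restricted cows. The difference was 0.90 ± 0.27 (SE, n = 4 and 4; adjusted p = 0.036), with overlap. The other 6 members were lower in ad libitum cows (5.14% of all elements were). EIF2B4 showed 0.18, 0.32, 0.56 and 0.76 in ad libitum and 0.90, 0.90, 1.12 and 1.30 in restricted cows, and the diets did not overlap. Its difference was -0.60 ± 0.16 (SE, n = 4 and 4; adjusted p = 0.022), with -0.20 for liver in Cy3 and -0.997 in Cy5.

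EIF4A3, the helicase of the exon junction complex, also separated the diets on day -14, at -1.44, -1.31, -1.21 and -1.15 in ad libitum and -1.01, -0.84, -0.84 and -0.66 in restricted cows. The difference was -0.44 ± 0.11 (SE, n = 4 and 4; adjusted p = 0.014). EEF2 element 2 (-0.79), EIF3CL (-0.62), EIF3K (-0.60) and TARS2, the mitochondrial threonyl enzyme (-0.42), passed with overlap of the diets. EEF2 element 1 (-0.47, adjusted p = 0.089) and EEF2 element 3 (-0.63, adjusted p = 0.071) did not pass. The calls of day -14 were fragile. Leaving out cow 7050 or cow 7105 gave 0, cow 6886 gave 1, cow 6952 gave 2, cow 7045 gave 4 and cow 6877 gave 19. It was 2, EIF2B4 and EIF4A3, when the 5 cow-days of low agreement were left out, and 2 with agreement as a covariate. On this day 1 of 7 endothelial and 2 of 3 lymphocyte and leukocyte marker elements were lower in ad libitum cows, and their part was not tested.

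On day 1, 11 members passed, or 16.9% beside 10.7% of all elements. Of these 8 were higher in ad libitum cows (8.82% of all elements were) and all are initiation factors or regulators of eIF2. EIF3F, an eIF3 subunit, lay at -0.20, -0.01, 0.13 and 0.20 in ad libitum and at -2.25, -1.39, -0.82 and -0.64 in restricted cows, without overlap. The difference was 1.31 ± 0.32 (SE, n = 4 and 4; adjusted p = 0.014). EIF4G3 element 2 (1.16), EIF2B2 (0.98), EIF6 (0.92), EIF2AK1 (0.90), EIF2S1 (0.86), EIF2B1 (0.82) and EIF3I element 1 (0.80) also passed.

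The other 3 members that passed on day 1 were lower in ad libitum cows (1.91% of all elements were), and all are cytosolic synthetases. WARS1 lay at -2.20, -1.92, -1.74 and -1.71 in ad libitum and at -1.40, -1.22, -1.20 and -0.37 in restricted cows, without overlap. Its difference was -0.85 ± 0.26 (SE, n = 4 and 4; adjusted p = 0.027). SARS1 lay at -0.49, -0.48, -0.24 and 0.14 in ad libitum and at 0.14, 0.20, 0.70 and 0.97 in restricted cows, with a difference of -0.77 ± 0.19 (SE, n = 4 and 4; adjusted p = 0.014). The highest ad libitum cow and the lowest restricted cow nearly met. YARS1 differed by -0.42 ± 0.14 (SE, n = 4 and 4; adjusted p = 0.039), with overlap. By day 14 none of these synthetases passed.

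Leaving out cow 7161 or cow 7187 ended all day 1 calls, and leaving out cow 7045 gave 1, cow 6886 gave 4 and cow 6952 gave 7. It was 0 as well without the 5 cow-days of low agreement, 2 of which are ad libitum cows on day 1, although SARS1 then differed by -0.86 and EIF3F by 1.28. With agreement as a covariate 11 members passed, and EIF3F differed by 1.42 (adjusted p = 0.014), SARS1 by -0.77 (adjusted p = 0.018) and WARS1 by -0.91 (adjusted p = 0.035). Without centring no member passed on day 1. Of the elements of 7 cell type marker lists none passed on day 1.

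On day 14, 15 members passed, or 23.1% beside 15.3% of all elements. There were 14 higher in ad libitum cows (11.6% of all elements were) and 1 lower (3.66%). The 8 initiation members of day 1 were all among them. EIF3F lay at 0.13, 0.33, 0.36 and 0.42 in ad libitum and at -1.44, -1.24, -1.19 and -0.33 in restricted cows, a difference of 1.36 ± 0.32 (SE, n = 4 and 4; adjusted p = 0.0050). EIF6, which keeps the large subunit from joining too early, lay at 0.12, 0.14, 0.24 and 0.34 and at -1.52, -1.15, -1.15 and -0.30, a difference of 1.24 ± 0.28 (SE, n = 4 and 4; adjusted p = 0.0041). Neither overlapped between diets, and in both the restricted cow 6952 stood well above the other restricted cows.

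EIF4G3 element 2 (1.29), a scaffold of the cap complex, EIF2B2 (1.21), EIF3I element 1 (1.15) and EIF2AK1, the heme-regulated eIF2 kinase (0.96), followed. EIF2B1 (0.83), like EIF2B2 a subunit of the exchange factor, and EIF2S1 (0.75) complete the 8. The remaining higher members were EIF1 element 1, EIF4A1 element 2, EEF1D, ETF1, the release factor, KARS1 element 2 and MARS1 element 1, at 0.40 to 0.66. The other elements of these genes had the same sign and did not pass. These were EIF1 element 2 (0.42), EIF4A1 element 1 (0.23), KARS1 element 1 (0.27) and MARS1 element 2 (0.16), with adjusted p between 0.079 and 0.64. Across cow-days the dye orientations correlated at -0.047 for EIF1 element 1, 0.004 for EEF1D and -0.13 for ETF1. The correlation was 0.34 for KARS1 element 2, 0.46 for EIF4A1 element 2 and 0.51 for MARS1 element 1. VARS1 element 1 was lower, at -0.63 ± 0.19 (SE, n = 4 and 4; adjusted p = 0.020), with -0.17 for liver in Cy3 and -1.09 in Cy5. VARS1 element 2 differed by -0.32 and did not pass (adjusted p = 0.31).

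Of the 15 members called on day 14, 12 had no overlap of the diets, beside 69.6% of all called elements. On day 1 it was 9 of 11, beside 85.1%, and on day -14 it was 2 of 7, beside 60.8%. Among markers on day 14, 1 of 7 endothelial elements was higher in ad libitum cows, 1 of 3 lymphocyte and leukocyte elements was lower, and 1 of 9 macrophage elements was higher and 1 lower, and their part was not tested. Leaving out cow 7045 gave 6 calls, cow 7105 gave 8, and cow 6886 or cow 7050 gave 10. It was 0 without the 5 cow-days of low agreement, when EIF3F still differed by 1.19 (adjusted p = 0.068) and EIF3I element 1 by 1.19 (adjusted p = 0.054). With agreement as a covariate 15 passed, and EIF3F differed by 1.39 (adjusted p = 0.0038) and EIF6 by 1.27 (adjusted p = 0.0029). Without centring 7 members passed, all higher, and with arrays scaled to equal spread 7 passed, all higher.

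**Figure D3:**
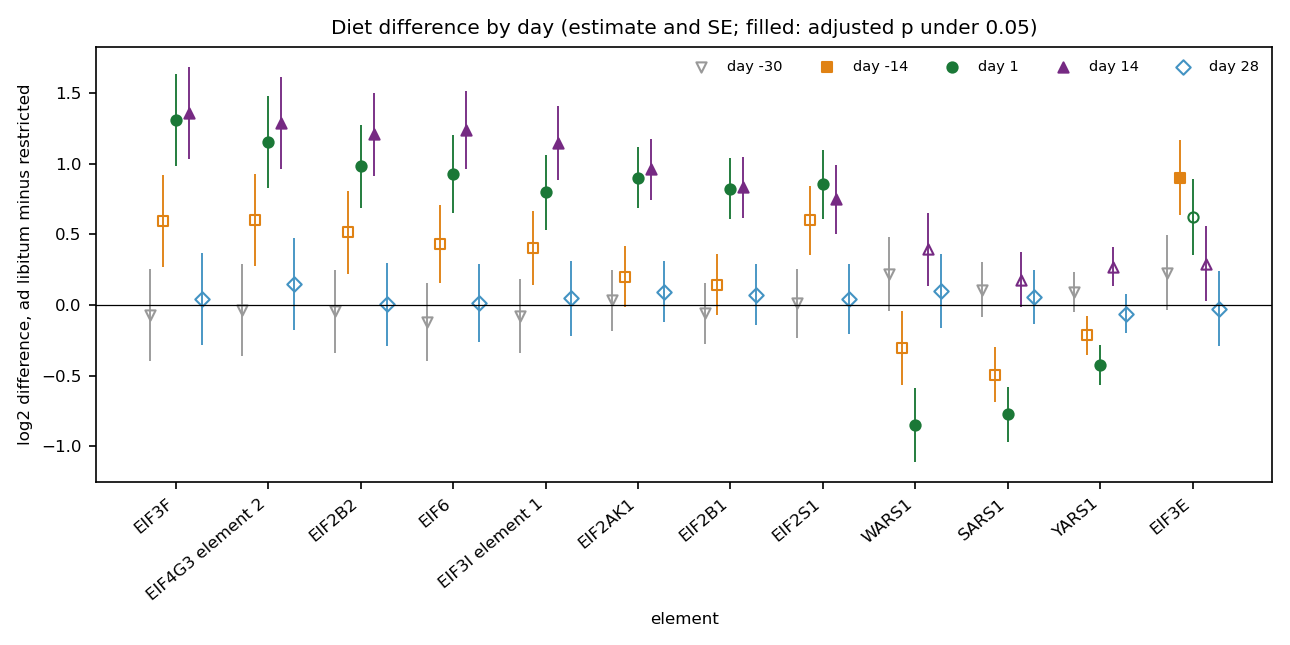
Difference in log2 ratio, ad libitum minus restricted (vertical axis, points with SE), on 5 days for 12 elements (horizontal axis); filled symbols passed at adjusted p under 0.05. The 8 initiation members on the left lie near 0 on days -30 and 28 and between 0.75 and 1.36 on days 1 and 14, and WARS1, SARS1 and YARS1 lie lowest on day 1.

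Averaged per cow over days 1, 14 and 28, the same 8 initiation members passed and no others, or 12.3% beside 10.4% of all elements (9.75% higher in ad libitum cows). EIF3F averaged 0.06 ± 0.11 (SD, n = 4) in ad libitum and -0.84 ± 0.11 (SD, n = 4) in restricted cows. Its difference was 0.90 ± 0.10 (SE; adjusted p = 0.0010). On single days its SD in restricted cows was larger, at 0.72 on day 1 and 0.49 on day 14. In the mean of the 8 members, cow 6952 was the lowest restricted cow on day 1 (-1.68) and the highest on day 14 (-0.32). Averaging over days evened out such swings within a cow, and the SE does not show them. EIF4G3 element 2 differed by 0.87 ± 0.11 (SE, n = 4 and 4; adjusted p = 0.0010), EIF2B2 by 0.73 and EIF6 by 0.73. EIF3I element 1 differed by 0.66, EIF2AK1 by 0.65, EIF2B1 by 0.58 and EIF2S1 by 0.55. In all 8 members every ad libitum cow lay above every restricted cow, and the diets did not overlap in 99.3% of all elements called in this comparison.

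With any single cow left out the number of calls after calving was again 8, and without the 5 cow-days of low agreement it was 7. EIF3F, EIF4G3 element 2, EIF2B2, EIF6, EIF3I element 1 and EIF2AK1 each passed in all of these. In arrays with liver in Cy3 the difference for EIF3F was 0.92, and in Cy5 it was 0.89. All 8 had the same sign in both orientations. Without centring 4 members passed. Among markers, ad libitum cows had lower values in 2 of 7 endothelial and 1 of 3 lymphocyte and leukocyte elements, and 1 of 9 macrophage elements was higher and 1 lower, and their part was not tested. On day 28 alone no member differed between diets (0% of all elements, and 0 members at an unadjusted p under 0.05), and the smallest p-values belonged to EIF4B (-0.47), EIF3B (-1.20) and EEF1D (-0.24).

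These 8 members varied as a unit. In deviations from the group means over 53 cow-days their 28 pairs correlated between 0.83 and 0.98, with a median r of 0.91, while the 2080 pairs of all members had a median of 0.07. Their mean correlated over 0.7 with 853 of 8053 other tested elements (10.6%) and with 1 of 57 other members, EIF1 element 1. Its correlation with the agreement of orientations was 0.12. Most elements that varied with the 8 were thus not members. EEF2 element 2 ran against them most among the members, at -0.62.

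The restricted cows spread widely in this set. On day -14 the mean of the 8 members was 0.65 in cow 6877, -0.81 in cow 7045, -1.02 in cow 7105 and -1.85 in cow 6952, and it lay between -0.75 and -0.03 in ad libitum cows. On day 1 the restricted cows lay between -1.68 and -0.45 and the ad libitum cows between -0.29 and 0.20. On day 14 they lay between -1.21 and -0.32 and between 0.10 and 0.25. The diets overlapped on day -14 and not on days 1 and 14.

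**Figure D4:**
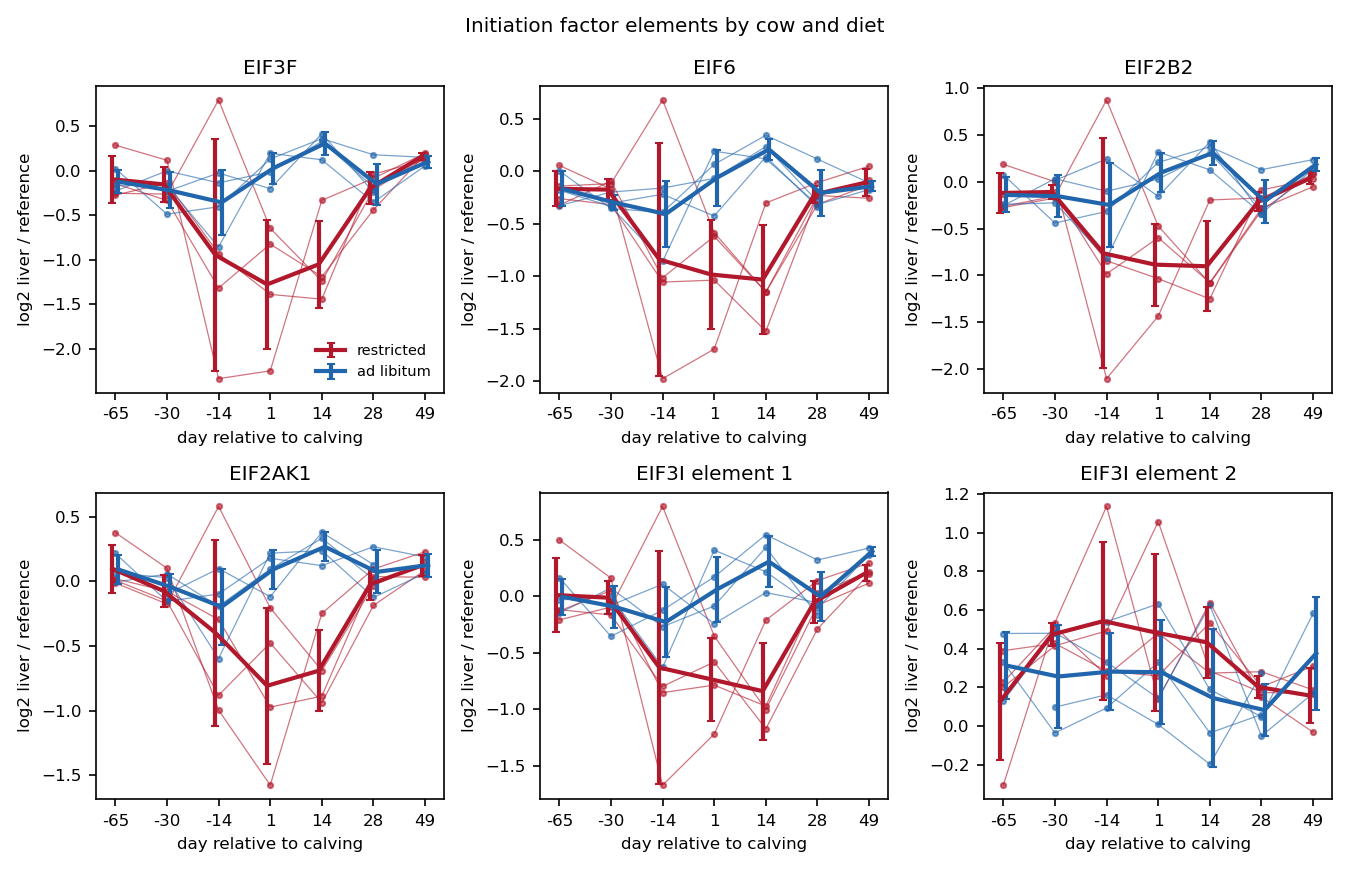
Log2 ratio of liver over reference (vertical axis) by day relative to calving for 6 initiation factor elements; thin lines are cows and thick lines are diet means with SD, restricted in red and ad libitum in blue. In EIF3F, EIF6, EIF2B2, EIF2AK1 and EIF3I element 1 the restricted cows lie below the ad libitum cows on days 1 and 14 and meet them on day 28, and EIF3I element 2 does not follow.

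For EIF3I and EIF4G3 the other element of the gene told a different story. EIF3I element 2 differed between diets by -0.21 on day 1 and -0.29 on day 14, against 0.80 and 1.15 for EIF3I element 1. EIF4G3 element 1 differed by -0.31 and -0.28, against 1.16 and 1.29 for EIF4G3 element 2. Neither element of the opposite sign passed (adjusted p between 0.34 and 0.56). The elements of each gene had r = -0.27 and r = -0.17 over cow-days, so a diet difference can be stated for these elements and not for the genes.

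Before calving, averaged over days -30 and -14, no member differed between diets (0% of all elements at adjusted p under 0.05). At an unadjusted p under 0.05 it was 11 members, and the share of all elements at that threshold is not given. EIF3K (-0.47), EEF2 element 3 (-0.46) and EIF3E (0.56) had the smallest p-values. The diet difference did not change detectably with calving for any member (0% of all elements, with 9 members at an unadjusted p under 0.05), with EIF2AK1 at 0.53, EEF1E1 at -0.49 and EIF1 element 1 at 0.40 (adjusted p = 0.51 each). No member passed the test of a diet effect that varied over the 7 days (0.806% of all elements did, and 16 members had an unadjusted p under 0.05). EIF3F, SARS1 and EIF2AK1 came nearest, each with adjusted p = 0.12. Without cow 6877, 12 members passed this test at adjusted p under 0.05, and without cow 6952 it was 9. With all cows none did.

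**Figure D5:**
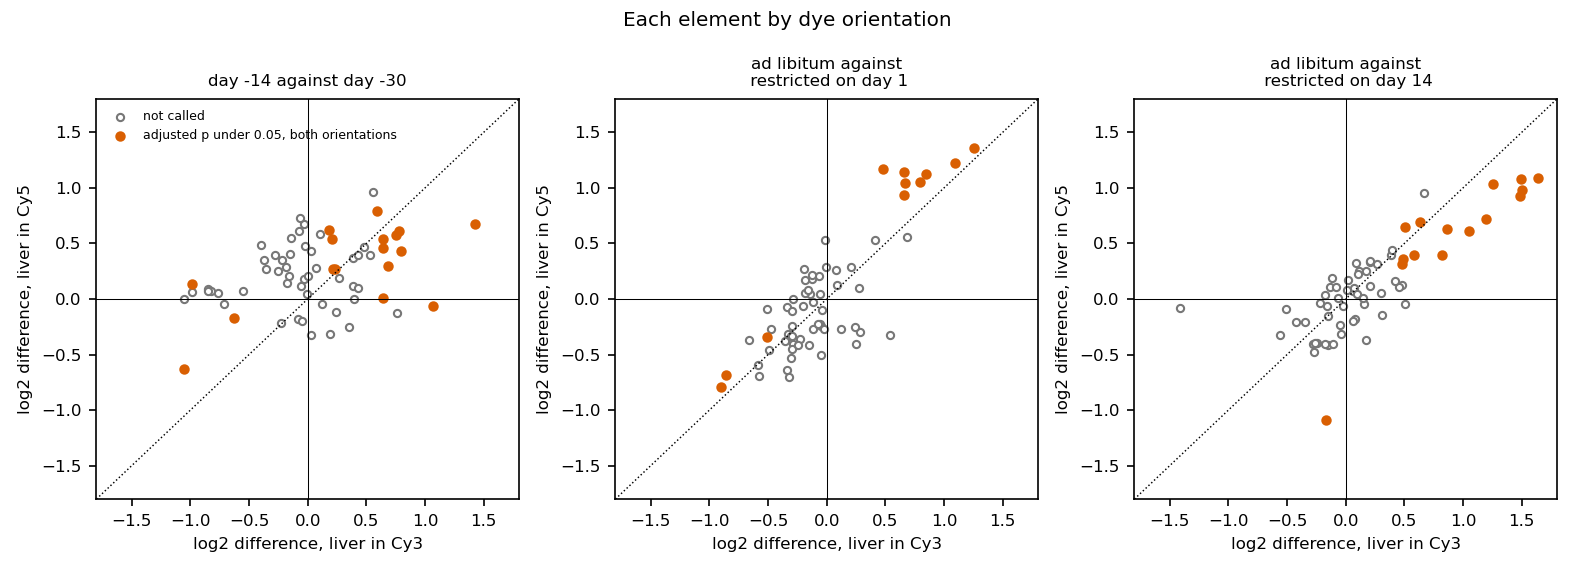
Difference in log2 ratio for each of the members, estimated from arrays with liver in Cy3 (horizontal axis) and with liver in Cy5 (vertical axis), for day -14 against day -30 and for the diets on days 1 and 14; filled points passed when both orientations were averaged, and the dotted line marks equality. All 11 members called on day 1 and all 15 on day 14 have the same sign in both orientations, against 15 of 17 for day -14 against day -30.

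Genes that steer translation without belonging to the rule were counted beside the members: 50 elements of 33 genes for mTOR signalling, the integrated stress response, release, recycling and mitochondrial translation. Over the 7 days 16 of 50 passed (32.0%, beside 43.4% of all elements), and between days -30 and -14 also 16, with 10 higher and 6 lower (32.0%, beside 33.5%). ATF4, the transcription factor whose translation rises when eIF2 is phosphorylated and which activates synthetase genes, rose by 0.59 ± 0.16 (SE, n = 8; adjusted p = 0.0048). PPP1R15A element 2, for the subunit that directs eIF2 dephosphorylation, rose by 0.60 ± 0.11 (SE, n = 8; adjusted p = 3.31e-05) and fell by 0.62 from day 14 to day 28. RACK1 element 3, a protein of the small ribosomal subunit, rose by 0.78, and LARP1 element 2, a repressor of ribosomal protein messages, by 0.53. TUFM, the mitochondrial elongation factor, fell by 0.71, PABPN1 by 0.59 and AKT1 by 0.51. The p of ATF4 was larger than those of the other elements named for this step. Not all elements of the numbered genes are given, here and below, so each value stands for its element and not for the gene.

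Between diets the share of these elements was near that of all elements: on day 14, 7 of 50 were higher in ad libitum cows and 1 lower (15.3% of all elements passed), and after calving 5 were higher and 0 lower (10.4%). The 5 were SESN1 element 2 (0.82), an inhibitor of mTOR complex activity, MTRF1L element 1 (0.64), a mitochondrial release factor, FARSA (0.61), a subunit of the phenylalanyl enzyme, PABPN1 (0.52), the nuclear poly(A) binding protein, and MKNK1 (0.48), an eIF4E kinase. TRIB3 element 2, a target of ATF4, was lower in ad libitum cows on day 14, at -0.75 ± 0.24 (SE, n = 4 and 4; adjusted p = 0.023). PABPN1, higher by 0.84, had the smallest p of these elements on that day. RACK1 element 3 (-0.86) and RACK1 element 2 (-0.79) had lower levels under ad libitum feeding on day -14.

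Among the cytosolic ribosomal proteins, ad libitum cows had lower values in 10 of 57 elements on day -14 and higher values in 0 (5.14% of all elements were lower), with a median difference of -0.40. On that day 6 of the 7 called members were lower in ad libitum cows, as were 414 of the 490 called elements of the whole array. After calving 0 of 57 ribosomal elements passed beside 8 of 65 members and 10.4% of all elements, and the difference between the lists was not tested. Their median correlation with the mean of the 8 initiation members within groups was -0.20. Per cow, the median of the ribosomal elements rose from -1.01 ± 0.14 (SD, n = 8) on day -30 to -0.50 ± 0.33 (SD, n = 8) on day -14, and that of the members went from -0.42 ± 0.06 (SD, n = 8) to -0.37 ± 0.13 (SD, n = 8).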

How the data were processed

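Liver RNA of 8 cows on 7 days was hybridised against a common reference on 106 arrays. The authors deposited a log2 ratio of Cy5 over Cy3 for each of 16416 spots; base 2 was inferred from how often exact values such as 1 and -1 occur, and background correction, filters and normalization are not given in the sources used here. Each ratio was turned to liver over reference by the dye in the titles (the longer text of 4 arrays names the other dye), centred on the array median, averaged over duplicate spots and over both orientations, and counted as 1 value per cow-day. Missing spots made up 1.23%. Elements with values from at least 2 cows in all 14 groups were tested (8061). limma 3.58.1 (R 4.3.3, statmod 1.5.0) fitted 14 group means and a random term for cow, since the same cows recur over days by label (within-cow correlation 0.0176). Diet averages before and after calving used 1 value per cow. All tests are two-sided; p-values were adjusted by Benjamini-Hochberg over all elements, and 0.05 is the threshold. Spot brightness is not used here, and the number of cows limits the precision. The fits were tested on simulated data with the real design. Members, gene lists and tests were chosen with earlier results of these data known. Named with values are the 14 members with the smallest p over days, up to 6 called in each direction per comparison, the 3 of smallest p where none passed, and elements of opposite sign; other called members were named to account for all of them. Of all elements 5598 carry a single symbol, 95 several and 2515 none here; 1 element listed for EEF1A1 and another gene was not used. Gene identifiers of the 66 members were all found in a RefSeq table of assembly ARS-UCD2.0. Alternatives covered centring, scaling, each orientation, the filter on missing values, the block, the prior, agreement of orientations and each cow left out.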

Additional observations from a re-analysis of the deposited data

Results flagged for a closer look

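In groups of 4 cows, 15 values among 264 groups over 22 members stood apart from the other 3 cows by Dixon's test, where chance gives about 1 in 20 groups. The number found is near that rate. Cow 6952 held 7 of the 15 values. They lie on elements of EEF2 and of the 8 initiation members, which vary together within each set, so they are not independent. On day 1 this restricted cow had 1.10 for EEF2 element 3 (others 0.04 to 0.21) and 1.54 for EEF2 element 2 (others 0.09 to 0.29). On day 14 it had -0.20 for EIF2B2 (others -1.25 to -1.08). It had 0.50 for EIF3I element 1 and 0.38 for EIF2AK1 on day -65, 0.23 for EIF4G3 element 2 on day -30 and 0.19 for EIF2B1 on day 28, each above the other restricted cows.

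Among the other restricted cows, WARS1 was -1.36 in cow 7045 on day -65 (others -2.58 to -2.45), EIF5A was -0.18 in cow 6877 on day -65, EIF3L was -0.61 in cow 7045 on day -30 and VARS1 element 2 was 0.077 in cow 7105 on day 28. Among ad libitum cows, YARS1 was -1.04 in cow 7050 and EEF2 element 1 was 0.026 in cow 7161 on day -14, and on day 28 cow 7161 had 0.13 for EIF2B2 and 0.12 for EIF6.

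From day 14 to day 28 every restricted cow rose and every ad libitum cow fell in 5 initiation elements. The change in ad libitum minus that in restricted cows was -1.32 for EIF3F (means -0.46 and 0.86), -1.22 for EIF6, -1.20 for EIF2B2, -1.14 for EIF4G3 element 2 and -1.10 for EIF3I element 1. The difference of the changes in this step was not tested, and the share of all elements with such a pattern is not given. All 5 belong to the 8 members called after calving, whose pairs correlated between 0.83 and 0.98 within groups. They passed between diets on day 14 and not on day 28. The pattern restates that difference, and these are not 5 separate results. EIF2B1, EIF2AK1 and EIF2S1 did not show the pattern, rising in 5, 5 and 6 of 8 cows. None of the 5 elements passed the F test of diet by day, with adjusted p from 0.12 (EIF3F) to 0.16 (EIF3I element 1).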

How the results depend on the processing

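Counts of called members depended on scaling, dye and single cows. The share of all elements called under each alternative is not given. A change in these counts can therefore not be told from a change over the whole array. Over the 7 days 25 passed, with 43 without centring, 16 with agreement as a covariate and 15 (without cow 7161) to 25 with a cow left out; it was 18 without 6886 or 7045, 17 without 7105 or 7187 and 19 with cow as a fixed replicate block, the labels' cow numbers pairing the samples across days. Day -14 against -30 (17) gave 32 without centring, 24 with scaling, 28 in Cy3 and 10 to 22 by cow. Day 28 against 14 (4) gave 23 without centring, 10 with scaling, 16 in Cy3, 2 in Cy5, 7 with the covariate and 2 to 6 by cow. Day 14 against 1 (1) gave 0 without centring, with scaling or quantiles, in either dye and without low-agreement cow-days, and 0 to 2 by cow; day 1 against -14 gave 0 to 2 (without 6877). For diet, day -14 (7) gave 0 without centring or in Cy3, 1 with scaling, 2 without agreement under 0.7 or with the covariate, and 0 to 19 by cow. Day 1 (11) gave 0 without centring, in Cy3 or without agreement under 0.7, and 0 to 14 by cow. Day 14 (15) gave 7 without centring or with scaling, 5 in Cy5, 0 without agreement under 0.7 and 6 to 16 by cow. After calving (8) it was 4 without centring and 5 in Cy3. Diet by day (0) gave 3 with quantiles and 0 to 12 by cow. Signs turned in Cy5 for EIF2S1 (0.13) and MARS1 element 1 (-0.044) on day -14 against -30; without centring for EIF2B1 (0.022) in that step and for EIF4A3 (0.18), EIF5A (0.026) and EIF1AD (0.10) on day 49 against 28; and for MARS1 element 1 with quantiles (-0.077) or without cow 6877 (-0.021; up to 0.11 by cow). The cause was not tested. Of 58 named calls, 57 held without the block, 27 of 28 with the fixed block, 34 in Cy3 and 33 without centring. Without 7161 or 7187 a single ad libitum cow remains on day 49 and is assumed to vary like the others.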
